A study of Homo sapiens with 6 samples.

Results

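Expression of 10 genes of the carnitine shuttle and of mitochondrial fatty acid oxidation was examined in MDA-MB-231 cells, an established human triple-negative breast cancer line, before and after ionising radiation. They were the rows of the expression table named *SLC22A5*, *CPT1A*, *SLC25A20*, *CPT2*, *CRAT*, *ACADVL*, *ACADM*, *HADHA*, *HADHB* and *ETFDH*, which is 10 genes of 58735 rows, and each name matched 1 row. The libraries were poly(A)-selected RNA of cells named SCR, with the genotype given as WT in the labels. The study describes shSCR cells as the non-targeting control of its short hairpin RNA knockdown, and does not describe irradiated cells. Both groups were taken to share this background. Of 6 libraries, 3 came from cells at 0 Gy and 3 from cells 24 h after 10 Gy of 137Cs gamma radiation at 1.7 Gy per min, so that the comparison asks how expression differed after irradiation. No label ties the 3 libraries of a group to separate cultures, and p-values then measure only the spread between these libraries, which may be technical.

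Long-chain fatty acids cannot cross the inner mitochondrial membrane as coenzyme A esters. CPT1 on the outer membrane passes the acyl chain to carnitine, the carrier SLC25A20 moves the acylcarnitine inward in exchange for free carnitine, and CPT2 returns the chain to coenzyme A in the matrix. Dehydrogenases, the trifunctional protein and thiolases then shorten the chain in repeated cycles, and electrons pass through the electron transfer flavoprotein to the respiratory chain.

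The start regions of 8 of the 10 genes were matched by symbol in a table of RefSeq promoters on GRCh38.p14, and *CRAT* and *ETFDH* were not. The 250 bases before each start were searched on both strands for the antioxidant response element core bound by small MAF and CNC factors (TGACNNNGC), the estrogen-related receptor element (TCAAGGTCA), the E-box (CACGTG), the GC box (GGGCGG) and the DR1 direct repeat. The DR1 repeat was searched as a pair of AGGTCA half-sites with a single base between them, and the estrogen-related receptor element ends in the same half-site, so that these motifs can overlap. The GC box was the only one of these found in the 9 windows of the 8 genes. It occurred 3 times before *CPT2*, 4 times before *ACADM*, 3 times before *SLC25A20*, 4 times before *SLC22A5*, 2 times before *HADHB* and once before *HADHA*, at a site that the *HADHB* window also holds. Of 35116 windows of the same length, 42.6% held a GC box, 10.9% the antioxidant response element core, 6.34% an E-box, 0.319% the estrogen-related receptor element and 0.0171% the DR1 repeat. The *CPT1A* window held none of the 5 motifs, and its GC content was 44.4%, against 58.0% for the median window. *ACADVL* has 2 starts in the table, and the window of the one at position 7219938 of chromosome 17 held 2 GC boxes while the other held none. A motif match is a description of these letters and not evidence of binding. The stretches below are shown because *CPT1A* fell after irradiation, *SLC25A20* is its partner carrier in the shuttle, and *HADHA* and *HADHB* start head to head, 307 bases apart. Each is the part of the window outside every exon of GENCODE 29, at chr11:68844411-68844527 on the minus strand, chr3:48898994-48899132 on the minus strand and chr2:26244727-26244747 as read for *HADHA* on the minus strand, and capitals mark a GC box.
CPT1A: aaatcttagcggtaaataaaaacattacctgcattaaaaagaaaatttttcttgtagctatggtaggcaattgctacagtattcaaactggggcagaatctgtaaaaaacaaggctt
SLC25A20: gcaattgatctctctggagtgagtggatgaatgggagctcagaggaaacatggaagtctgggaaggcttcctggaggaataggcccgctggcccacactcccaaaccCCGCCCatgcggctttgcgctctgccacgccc
HADHA: ggggcagggctaaggggccgg

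Reads on genes, recovered from FPKM, gene length and depth, numbered between 15643641 and 28861781 per library, and mitochondrially encoded genes took between 1.94% and 2.44% of them. Libraries of one dose correlated with r of at least 0.959 across genes and libraries of different doses with at most 0.964 on log2(FPKM + 0.1). Of the markers used to check the line, *VIM* stood at 300.9 ± 9.54 FPKM at 0 Gy and 251.2 ± 3.88 FPKM at 10 Gy, *AXL* at 258.9 ± 4.28 and 184.1 ± 4.63 FPKM, and *CD44* at 78.6 ± 2.60 and 73.0 ± 0.697 FPKM (SD, n = 3). *VIM* and *AXL* fell and *CD44* was not called (limma, adjusted p = 0.00526, 0.0012 and 0.0631). The luminal genes *ESR1*, *PGR* and *FOXA1* were under a mean of 0.1 FPKM, the filter for testing a gene, and *GATA3* was near 3 FPKM in both groups. Of 5 blood, endothelial and stromal genes, 3 were under the filter and the other 2 were higher at 10 Gy, with a summed level of all 5 of 4.26 to 4.38 FPKM at 0 Gy and 6.04 to 6.27 FPKM at 10 Gy. The 8 dividing-cell genes summed to 582.9 to 588.1 FPKM at 0 Gy and 659.4 to 669.3 FPKM at 10 Gy, with 5 higher, 1 lower and 2 not called. Over all genes tested, 19.1% were called, 7.23% higher and 11.9% lower. The part of these marker shifts in the results below was not tested, and with bulk RNA a different mix of cells cannot be told apart from a different level per cell.

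In cells at 0 Gy, the 10 genes spanned 99.0-fold in FPKM, a unit that divides the reads of a gene by its length and by the depth of the library. *ACADVL*, the very long-chain acyl-CoA dehydrogenase, stood highest at 52.3 ± 1.53 FPKM (SD, n = 3), and *CPT2* lowest at 0.528 ± 0.0470 FPKM. Between them came *HADHA* at 37.3 ± 1.79 FPKM, *HADHB* at 17.7 ± 0.870 FPKM, *CPT1A* at 14.8 ± 0.418 FPKM and *ACADM* at 14.6 ± 0.437 FPKM. *CRAT* followed at 7.21 ± 0.457 FPKM, *SLC25A20* at 7.06 ± 0.423 FPKM, *ETFDH* at 3.71 ± 0.397 FPKM and *SLC22A5* at 1.33 ± 0.123 FPKM. Neighbours in this order did not overlap between libraries, except *CPT1A* with *ACADM* and *CRAT* with *SLC25A20*. Among the 20214 genes tested, *ACADVL* stood at the 95.7th percentile of the 0 Gy level, *CPT1A* at the 82.5th, *SLC25A20* at the 69.8th and *CPT2* at the 32.5th. The final carnitine acyltransferase of the shuttle was therefore measured far below the enzymes on either side of it in the pathway, on the scale of FPKM.

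**Figure D1:**
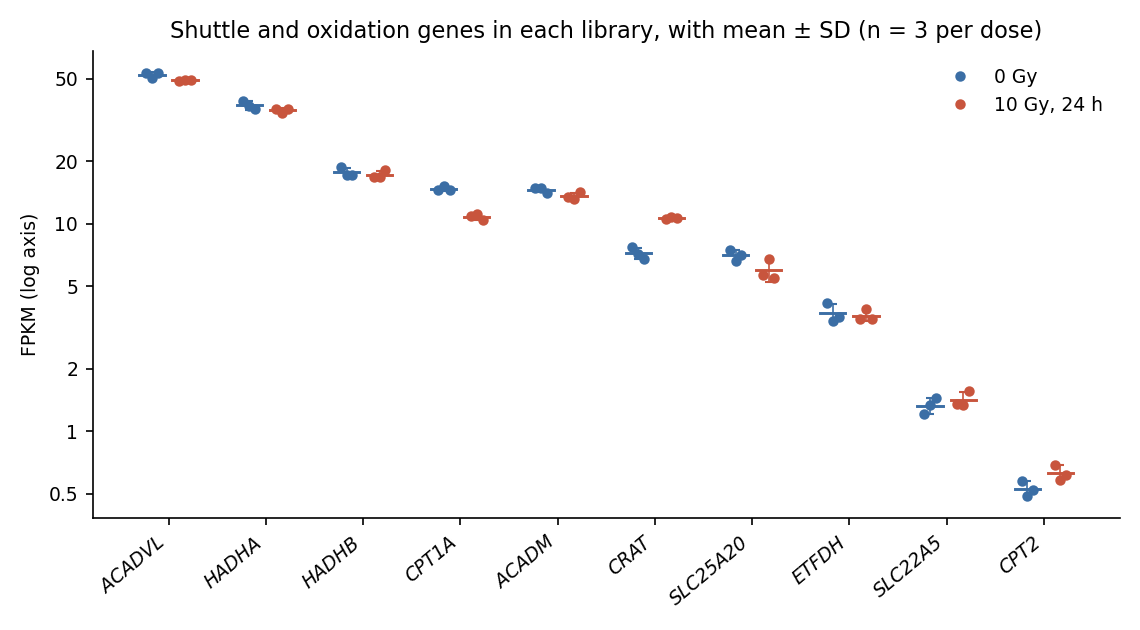
FPKM of the 10 genes on a log axis, with a point for each library, a line at the mean and a bar of 1 SD (n = 3 at 0 Gy in blue, n = 3 at 10 Gy in red). *CPT1A* at 10 Gy sits wholly below and *CRAT* at 10 Gy wholly above the 0 Gy libraries, and *CPT2* stays under 1 FPKM in every library.

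The level of a gene in FPKM depends on the length it is divided by. The deposited lengths equalled the union of all GENCODE 29 exons of a gene for 99.98% of rows, and for *CPT2* and *SLC22A5* this union is long. *CPT2* was divided by 10452 bases, of which 7067 belong only to retained-intron transcripts, whereas its principal transcript has 5 exons and 3094 bases. *SLC22A5* was divided by 12788 bases, of which 9411 belong only to retained-intron transcripts, against 3237 bases in its principal transcript. If all reads came from the principal transcript, the 0 Gy level would be 1.79 ± 0.159 FPKM for *CPT2* and 5.26 ± 0.484 FPKM for *SLC22A5*. *CPT2* remained the lowest of the 10 genes on this scale, as *SLC22A5* reached the level of *ETFDH* at 5.08 ± 0.544 FPKM and *ACADM* at 26.7 ± 0.798 FPKM passed *CPT1A* at 18.5 ± 0.525 FPKM. *ACADVL* at 109.6 ± 3.20 FPKM, *HADHA* at 53.9 ± 2.59 FPKM and *HADHB* at 37.1 ± 1.82 FPKM stayed highest, in the same order. The length enters both doses alike, so the ratio of FPKM between doses does not depend on it. With a fixed pseudocount the log2 change of a low gene does, and that of *CPT2* was 0.22 with 0.1, 0.25 with 0.01 and 0.09 with 1, called with none of them.

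**Figure D2:**
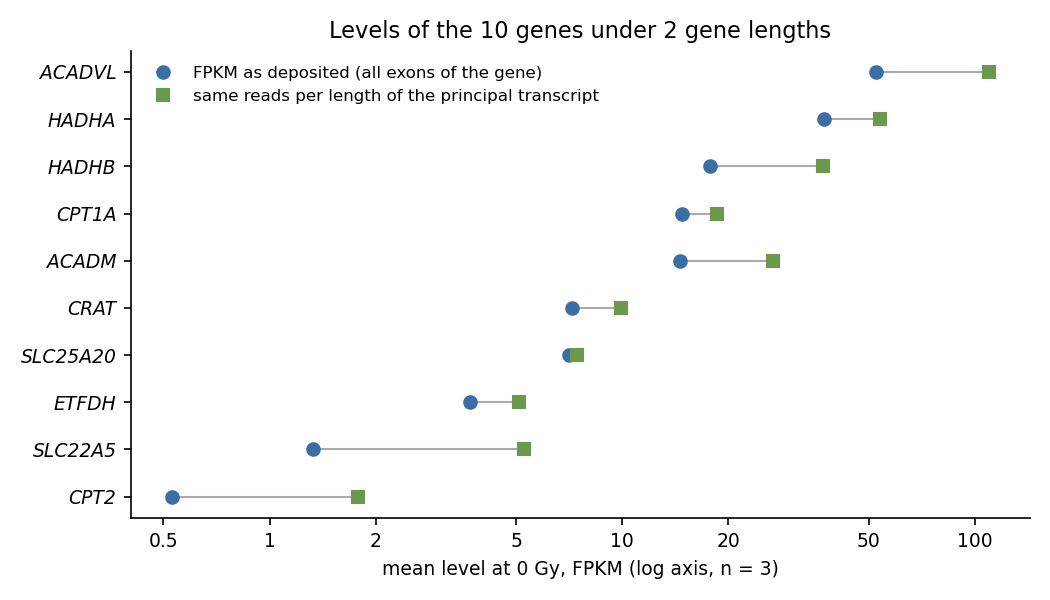
Mean level at 0 Gy (n = 3, log axis) of the 10 genes with the deposited length (circles) and with the length of the GENCODE 29 principal transcript (squares). The gap is widest for *SLC22A5*, from 1.33 to 5.26, and for *CPT2*, from 0.528 to 1.79.

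After 10 Gy, 1 of the 10 genes rose and 1 fell by limma's moderated test on log2(FPKM + 0.1) with Benjamini-Hochberg adjustment over all genes tested, at a threshold of 0.05. *CRAT*, which moves short acyl chains between carnitine and coenzyme A, rose by 0.56 on the log2 scale, and *CPT1A*, the entry enzyme of the shuttle, fell by 0.45 on the log2 scale. The other 8 did not pass the test. Of all genes tested, 19.1% were called, 7.23% higher and 11.9% lower, and 2 of 10, or 20%, was close to that share. The share over all genes depends on which genes are tested. With protein-coding genes alone, 4883 of 12940 were called, and 3 of the 10 genes. Where the mean had to reach 1 FPKM, 4302 of 12128 were called. The median log2 change of the 10 genes was -0.06, against 0.02 over all genes tested, and 0.07 against 0.13 with the TPM scaling described below. The 2 groups of libraries did not overlap for 4 of the 10, with *CRAT* and *CPT2* above and *CPT1A* and *ACADVL* below, and for 39.6% of all genes tested.

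*SLC22A5* (chr5:132369752-132395614, plus strand) encodes OCTN2, the high-affinity carnitine transporter of the plasma membrane. It measured 1.21, 1.33 and 1.45 FPKM at 0 Gy and 1.35, 1.34 and 1.57 FPKM at 10 Gy, from 262 to 518 reads a library. The groups overlapped, and the fold of 1.06 had a 95% interval of 0.885 to 1.28 (limma, adjusted p = 0.623).

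*CPT1A* (chr11:68754620-68844410, minus strand) encodes the liver isoform of the outer-membrane enzyme, the step that malonyl-CoA inhibits. Its level was 14.6, 15.3 and 14.5 FPKM at 0 Gy and 10.9, 11.2 and 10.4 FPKM at 10 Gy, from 1338 to 2132 reads a library. Every irradiated library lay below every library at 0 Gy. The log2 change was -0.45 with an SE of 0.040, a fold of 0.734 with a 95% interval of 0.687 to 0.784 (limma, adjusted p = 0.00174), and it ranked 172nd of the genes tested by p. The call stood in all 20 alternative settings, between -0.47 and -0.32.

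*SLC25A20* (chr3:48856931-48898993, minus strand) encodes the carnitine-acylcarnitine carrier. It measured 7.48, 6.63 and 7.06 FPKM at 0 Gy and 5.65, 6.80 and 5.48 FPKM at 10 Gy, from 202 to 335 reads. The second irradiated library lay within the range of the libraries at 0 Gy and the other two lay below it. The log2 change was -0.24 with an SE of 0.091, and *SLC25A20* was not called (limma, adjusted p = 0.117). The call turned with the setting, since voom on the recovered reads gave -0.27 (adjusted p = 0.0422) and the fit without 10 Gy replicate 2 gave -0.34 (limma, adjusted p = 0.0477).

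*CPT2* (chr1:53196429-53214197, plus strand) encodes the inner-membrane acyltransferase that completes the shuttle. It measured 0.579, 0.486 and 0.521 FPKM at 0 Gy and 0.691, 0.582 and 0.619 FPKM at 10 Gy. The lowest irradiated library lay just above the highest library at 0 Gy. These values rest on 78 to 216 reads a library, for which counting alone gives 95% intervals of 13.6% to 22.9% on either side. The fold of 1.16 had a 95% interval of 0.902 to 1.497 and was not called (limma, adjusted p = 0.373), nor was it by voom on the recovered reads (log2 change 0.26, adjusted p = 0.151). An antisense gene shares 11.01% of the exon bases of *CPT2*, at 0.0273 to 0.226 FPKM, and *C1orf123* on the other strand shares 99 bases, or 0.947%, at 4.61 to 6.72 FPKM. Whether reads were counted by strand is not given in the sources used here, so reads in the shared part cannot be told apart.

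*CRAT* (chr9:129094810-129111189, minus strand) encodes carnitine acetyltransferase, which buffers acetyl-CoA against acetylcarnitine. It measured 7.69, 7.15 and 6.79 FPKM at 0 Gy and 10.5, 10.8 and 10.6 FPKM at 10 Gy, from 418 to 1195 reads. The irradiated libraries lay close together and all above the libraries at 0 Gy. The log2 change was 0.56 with an SE of 0.052, a fold of 1.47 with a 95% interval of 1.35 to 1.60 (limma, adjusted p = 0.00182), ranking 209th by p. The call stood in all 20 alternative settings, between 0.51 and 0.69. *CRAT* shares 1.97% of its exon bases with *PTPA* on the other strand, which stood at 35.1 to 38.8 FPKM.

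*ACADVL* (chr17:7217125-7225273, plus strand) encodes the dehydrogenase that opens each cycle on very long chains. It measured 53.2, 50.6 and 53.2 FPKM at 0 Gy and 48.6, 49.4 and 49.3 FPKM at 10 Gy, from 3782 to 7067 reads. The irradiated libraries lay below all libraries at 0 Gy by a narrow margin. The fold of 0.939 had a 95% interval of 0.892 to 0.988 and did not pass the adjusted threshold (limma, adjusted p = 0.0862), and without 0 Gy replicate 2 it did (log2 change -0.12, limma, adjusted p = 0.0421).

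*ACADM* (chr1:75724347-75787575, plus strand) encodes the dehydrogenase for medium chains. It measured 14.9, 14.8 and 14.1 FPKM at 0 Gy and 13.5, 13.2 and 14.2 FPKM at 10 Gy. The third irradiated library lay within the 0 Gy range, and the fold of 0.932, with a 95% interval of 0.870 to 0.998, was not called (limma, adjusted p = 0.140). *RABGGTB* shares 3.28% of the exon bases of *ACADM* on the same strand.

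*HADHA* (chr2:26190635-26244726, minus strand) and *HADHB* (chr2:26243170-26290468, plus strand) encode the alpha and beta subunits of the mitochondrial trifunctional protein, which carries the hydratase, hydroxyacyl dehydrogenase and thiolase steps for long chains. Their spans overlap by 1557 bases but share no exon base. *HADHA* measured 39.2, 37.1 and 35.7 FPKM at 0 Gy and 35.6, 34.3 and 35.9 FPKM at 10 Gy. *HADHB* measured 18.7, 17.1 and 17.3 FPKM at 0 Gy and 16.9, 16.8 and 18.1 FPKM at 10 Gy. The groups overlapped for both subunits. The fold was 0.946 for *HADHA*, with a 95% interval of 0.883 to 1.01 (limma, adjusted p = 0.238), and 0.975 for *HADHB*, with an interval of 0.899 to 1.06 (limma, adjusted p = 0.651).

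*ETFDH* (chr4:158672125-158709623, plus strand) encodes the oxidoreductase that hands electrons from the flavoprotein to ubiquinone. It measured 4.16, 3.42 and 3.56 FPKM at 0 Gy and 3.47, 3.87 and 3.48 FPKM at 10 Gy, from 236 to 466 reads. The first library at 0 Gy was the highest of the 6, and the groups overlapped. The fold of 0.974 had a 95% interval of 0.841 to 1.13 (limma, adjusted p = 0.811). *PPID* on the other strand, at 17.5 to 20.4 FPKM, shares 10.9% of the exon bases of *ETFDH*, and those reads cannot be told apart without strand. *C4orf46*, also on the other strand at 17.2 to 22.7 FPKM, shares a further 131 bases, or 2.92%. Both stood well above *ETFDH*, so its level and its place in the order carry this limit.

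The small changes depended on how libraries were scaled. The depth implied by the deposited FPKM was 0.973 to 0.991 times the reads on genes at 0 Gy and 1.03 to 1.04 times at 10 Gy. TPM scaling, which sets every library to the same total of FPKM, divides by different factors. These were 1.03 to 1.07 at 0 Gy and 0.946 to 0.976 at 10 Gy. TPM scaling moved the median log2 change of all genes from 0.02 to 0.13. It turned the split of called genes from 1462 higher and 2402 lower to 3050 higher and 889 lower. On that scale the log2 changes of *ACADVL*, *ACADM*, *HADHA*, *HADHB* and *ETFDH* were 0.04, 0.03, 0.05, 0.09 and 0.09, all below the median of all genes and none called, whereas *CPT1A* at -0.32 and *CRAT* at 0.69 were called in the same direction as before. Upper quartile scaling gave 1842 higher and 1684 lower.

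**Figure D3:**
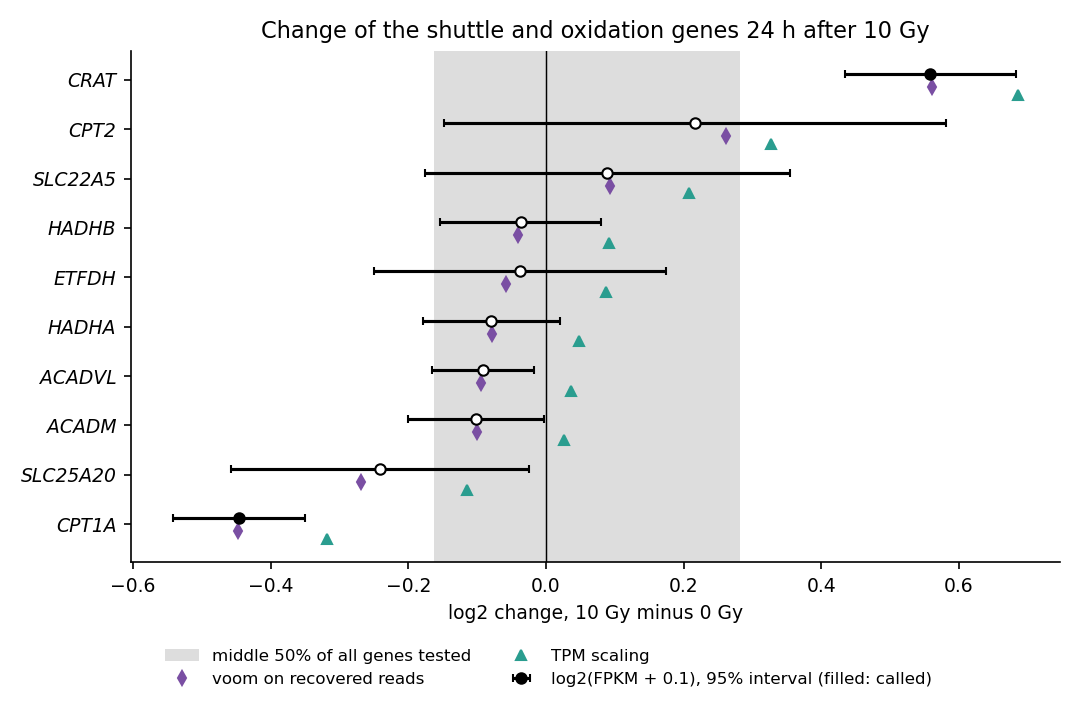
Log2 change at 10 Gy against 0 Gy for the 10 genes (circles with 95% intervals, n = 3 per dose, filled where called), beside voom on the recovered reads (diamonds) and TPM scaling (triangles), with the middle 50% of all genes tested in grey (-0.16 to 0.28). *CPT1A* and *CRAT* lie outside the grey band under every one of the 3 scales, and 5 genes cross 0 under TPM scaling.

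Ratios of 2 genes within a library do not depend on its scaling. The size of a ratio depends on the gene lengths, here as deposited, while its change between doses does not. Per principal transcript, the 0 Gy means were 18.5 FPKM for *CPT1A*, 7.44 FPKM for *SLC25A20* and 1.79 FPKM for *CPT2*, closer together than the ratios below. The 5 ratios were tested two-sided by exact permutation, for which 3 libraries against 3 allow no p below 0.1. *CPT1A* stood 25.2, 31.4 and 27.8 times above *CPT2* at 0 Gy and 15.7, 19.2 and 16.9 times above it at 10 Gy. The groups did not overlap, with means of 28.1 ± 3.14 and 17.3 ± 1.77 and a log2 difference of -0.70 (SE 0.13, n = 3 per dose, exact permutation p = 0.1, adjusted over the 5 ratios 0.167). This ratio combines the fall of *CPT1A* with a *CPT2* value that was not itself called. The ratio of *SLC25A20* to *CPT2* was 12.9, 13.7 and 13.5 at 0 Gy and 8.18, 11.7 and 8.85 at 10 Gy, a log2 difference of -0.50 with an SE of 0.16 (exact permutation p = 0.1, adjusted 0.167). The ratio of *SLC22A5* to *CPT1A* was 0.0901 ± 0.00892 at 0 Gy and 0.132 ± 0.0163 at 10 Gy (SD, n = 3), without overlap (exact permutation p = 0.1, adjusted 0.167).

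The ratios of the 2 trifunctional protein subunits and of the 2 dehydrogenases overlapped between doses. *HADHA* stood 2.10, 2.16 and 2.06 times above *HADHB* at 0 Gy and 2.11, 2.04 and 1.98 times at 10 Gy (exact permutation p = 0.3, adjusted 0.375). Per principal transcript the 0 Gy means were closer, at 53.9 FPKM for *HADHA* and 37.1 FPKM for *HADHB*. *ACADVL* stood 3.58 ± 0.179 times above *ACADM* at 0 Gy and 3.61 ± 0.136 times at 10 Gy (SD, n = 3, exact permutation p = 0.8, adjusted 0.8).

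**Figure D4:**
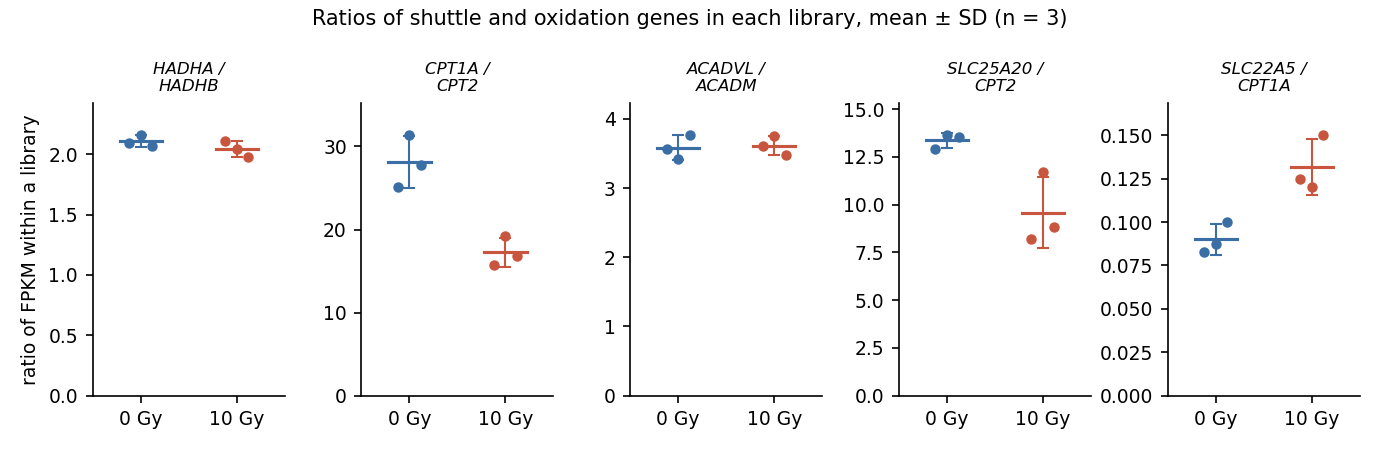
Ratios of FPKM within each library for 5 pairs of genes, at the deposited gene lengths, with points for libraries, lines at the mean and bars of 1 SD (n = 3 at 0 Gy, n = 3 at 10 Gy, each axis from 0). *CPT1A* to *CPT2* has means of 28.1 and 17.3 and no overlap between doses, while *HADHA* to *HADHB* stays between 1.98 and 2.16.

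The remaining genes of the pathway came from a list of 60, of which 51 were tested, and 14 of these, or 27.5%, were called, 5 higher and 9 lower. Over all genes tested the share was 19.1%, with 7.23% higher and 11.9% lower. With protein-coding genes alone, 4883 of 12940 genes and 21 of the other pathway genes were called, so 27.5% is not read as raised. TPM scaling called 19 of the 51 and voom 21. Groups did not overlap for 30 of the 51, among them all 14 called, and for 39.6% of all genes tested. Among 3 other genes of the carnitine shuttle, *CROT*, the peroxisomal carnitine octanoyltransferase, rose from 2.25 ± 0.151 to 2.72 ± 0.0601 FPKM (SD, n = 3, log2 change 0.26, SE 0.072, limma, adjusted p = 0.0466). *CROT* passed the test in 10 of 20 alternative settings and in none that left out a library (limma, adjusted p = 0.0655 to 0.133). The other CPT1 isoforms were low and not called, with *CPT1B* at 0.202 ± 0.0713 and 0.299 ± 0.0515 FPKM and *CPT1C* at 1.97 ± 0.106 and 2.46 ± 0.231 FPKM. Of the 2 other genes of carnitine uptake and synthesis that were tested, *ALDH9A1*, an aldehyde dehydrogenase of carnitine synthesis, fell by 0.12 on the log2 scale (limma, adjusted p = 0.0399), which was 0.0067 under TPM scaling, and *SLC22A4* was not called. *SLC22A16*, *SLC16A9*, *TMLHE* and *BBOX1* were under the filter.

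Of 9 other genes of mitochondrial beta-oxidation that were tested, 1 fell and none rose, which is 11.1% called against 19.1% of all genes. *ACAA2*, the thiolase of the mitochondrial matrix, fell from 3.999 ± 0.0207 to 2.95 ± 0.312 FPKM (SD, n = 3, log2 change -0.43, SE 0.082, limma, adjusted p = 0.0148). The call was lost without 0 Gy replicate 3 or 10 Gy replicate 1 (limma, adjusted p = 0.0517 and 0.0644). The abundant short-chain enzymes *ECHS1*, at 118.2 ± 10.2 and 114.0 ± 0.584 FPKM, and *HSD17B10*, at 72.5 ± 6.38 and 64.3 ± 2.54 FPKM, were not called, and *ACAD11* was under the filter. Of 3 enzymes for unsaturated chains, 1 was called, or 33.3% against 19.1% of all genes tested. The isomerase *ECI2* fell by 0.19 on the log2 scale (limma, adjusted p = 0.0281). It was not past the threshold in 8 of 20 alternative settings, among them the fits without 0 Gy replicate 1 or 3 and without 10 Gy replicate 2 or 3 (limma, adjusted p = 0.0637 to 0.0987). Under TPM scaling the log2 change of *ECI2* was -0.06 (limma, adjusted p = 0.431). Of the 2 flavoprotein subunits, *ETFA* fell from 26.3 ± 0.461 to 22.6 ± 0.536 FPKM (SD, n = 3, log2 change -0.22, SE 0.031, limma, adjusted p = 0.00592) and *ETFB*, at 2.27 ± 0.211 and 2.15 ± 0.170 FPKM, was not called. The call of *ETFA* was lost under TPM scaling alone (log2 change -0.09, limma, adjusted p = 0.0629). With the 10 genes included, 13 tested genes of mitochondrial beta-oxidation had a median log2 change of -0.09, which was 0.04 under TPM scaling. The 7 genes of the carnitine shuttle had a median log2 change of 0.26, or 0.39 under TPM scaling, against 0.02 and 0.13 over all genes tested. This median is the value of *CROT*. Of the 7, 2 were higher and 1 lower, or 42.9% called against 19.1% of all genes tested. The share over all genes was higher with protein-coding genes alone, at 4883 of 12940, so 42.9% of 7 genes is not read as raised. Their summed level was 33.4 to 34.6 FPKM at 0 Gy and 32.5 to 35.0 FPKM at 10 Gy. Under TPM scaling it was 32.3 to 32.8 at 0 Gy and 33.3 to 37.0 at 10 Gy.

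**Figure D5:**
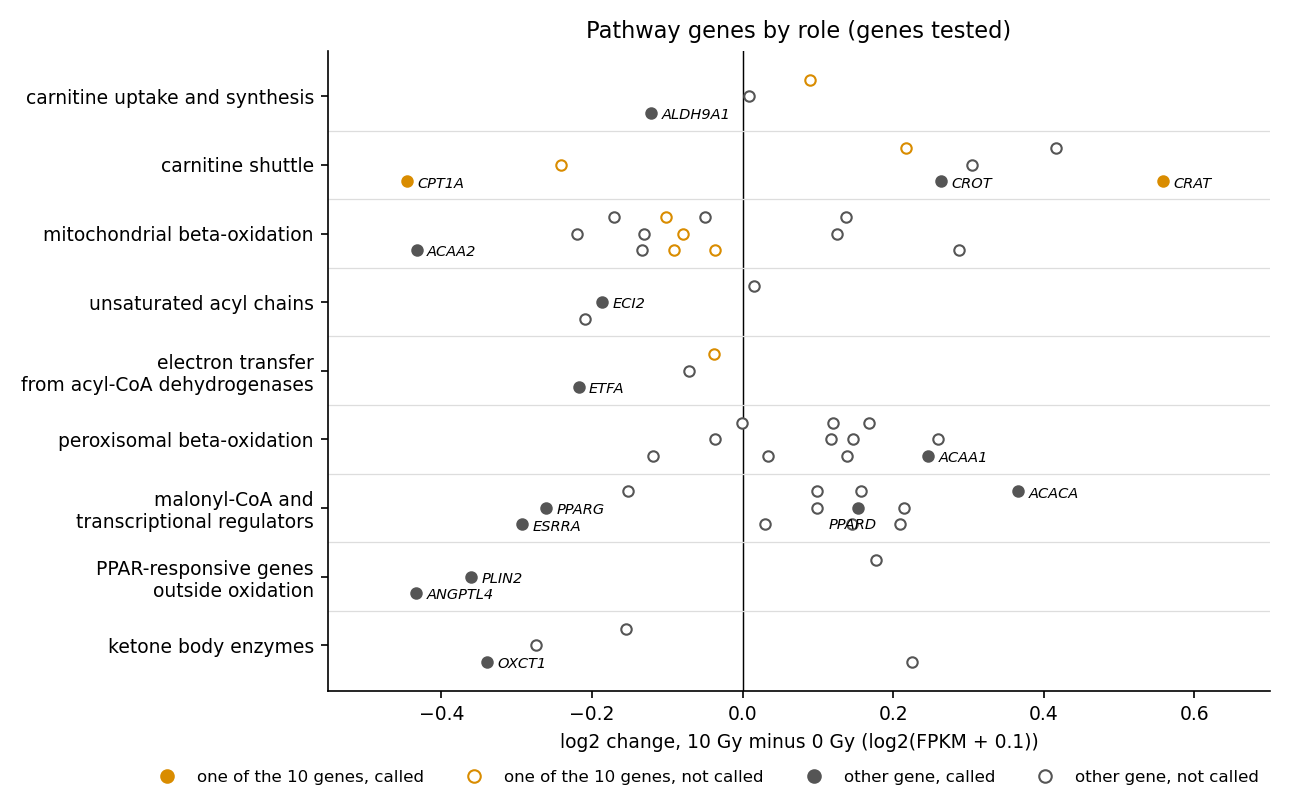
Log2 change at 10 Gy against 0 Gy (log2(FPKM + 0.1), n = 3 per dose) of the pathway genes tested and reported, in a row for each role, with the 10 genes in orange, other genes in grey and called genes filled and named. *CPT1A* and *CRAT* mark both ends of the carnitine shuttle row, at -0.45 and 0.56, and *ACAA2* at -0.43 is the filled point of the mitochondrial row.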

How the data were processed

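The 3 SCR libraries at 0 Gy and 3 at 10 Gy were grouped by treatment as labelled. The authors deposited FPKM values per gene. HISAT2 and GRCh38 are named in the submitters' processing notes, and the counting program is not given in the sources used here. Gene identifiers and lengths match GENCODE 29. FPKM multiplied by gene length and implied depth gave whole reads (within 0.05) for 100% of values above 0. The libraries of shMAFF cells were not analysed here.

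The doses were set against each other on log2(FPKM + 0.1) by limma 3.58.1 (R 4.3.3), using eBayes with an intensity trend and no block, for 20214 genes whose mean reached 0.1 FPKM. The call rule was an adjusted p (Benjamini-Hochberg) below 0.05, and fold changes are on the log2(FPKM + 0.1) scale, which understates those of low genes. The filter used the mean of all 6 libraries, and all 10 genes passed it. Alternatives covered pseudocount, filter, scaling, block, left-out libraries, gene type, variance trend and limma voom on the recovered reads, which called 5410 genes. Read counts were also simulated, with far fewer genes changed than were called here, so the shares found there need not carry over to these data. On simulated data, a larger share of the calls of the log2(FPKM + 0.1) fit than of the calls of voom fell on unchanged genes. For the log2(FPKM + 0.1) fit that share was above the threshold of 0.05, so calls with an adjusted p near 0.05 are less certain than it implies. Intervals from reads cover counting error only. The 10 genes were all named, and of 60 other pathway genes, those called without overlap, at most 12 by size of change. The further called genes *ALDH9A1* and *PPARD*, and uncalled genes of interest, were named after their values were seen. *ALDH9A1* and *PPARD* were not among the 12 followed through every alternative. The genes and lists were chosen with earlier results of these data known. Sequences were read in Python 3.11.15 from a RefSeq table. Results for some genes of the lists are not reported here.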

Additional observations from a re-analysis of the deposited data

How the results depend on the processing

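The number of the 10 genes called was 2 or 3 in all 20 alternatives, always with *CPT1A* and *CRAT*. *SLC25A20* joined them with voom, with protein-coding genes alone and without 10 Gy replicate 2, and *ACADVL* without 0 Gy replicate 2. Directions reversed for small, uncalled changes. Upper quartile scaling gave 0.0092 for *HADHB* and 0.0073 for *ETFDH*, TPM scaling gave 0.037 for *ACADVL*, 0.026 for *ACADM*, 0.049 for *HADHA*, 0.091 for *HADHB* and 0.088 for *ETFDH*, and leaving out 0 Gy replicate 1 gave 0.0036 for *HADHB* (range over left-out libraries -0.072 to 0.0036) and 0.046 for *ETFDH* (-0.093 to 0.046). The log2 difference of the *ACADVL* to *ACADM* ratio, 0.011, ranged from -0.023 to 0.048 with a library left out and was below 0 without replicate 2 of either dose (-0.023 and -0.016).

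Against 3864 genes called, eBayes without trend called 2194 (1144 lower), and fits with a library left out called between 1541 and 3347 (537 to 1305 higher, 1004 to 2042 lower). TPM scaling gave 3050 higher and 889 lower, voom 2250 higher, and a trend on mean log2 reads, chosen after seeing the data, 2207 higher. The other pathway genes called, 14, became 7 without trend and 6 to 12 with a library left out, fewest without 10 Gy replicate 2. Of 12 other pathway genes followed through every alternative, none reversed, and *PLIN2*, *OXCT1* and *ESRRA* were called in all 20. These 12 were chosen as called without overlap in the main fit, so that they kept their direction is largely set by that choice. All 12 were called by voom. The cause of these differences was not tested.

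Deviations of same-numbered libraries correlated at -0.011, -0.0069 and -0.035, and those of libraries with different numbers at -0.024 to 0.036. No pairing by replicate number was therefore seen in the values, which cannot show how the libraries were prepared. With the replicate block, 2075 genes were called, 720 higher and 1355 lower, and 8 other pathway genes, and *CPT1A* and *CRAT* again, while *CROT*, *PPARG*, *ACAA1* and *ECI2* were not. Depth limits *CPT2* most, at 78 to 216 reads a library.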

Other observations

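Outside the mitochondrial pathway, *ACAA1*, the peroxisomal thiolase, rose from 3.91 ± 0.201 to 4.65 ± 0.0713 FPKM (SD, n = 3, log2 change 0.25, SE 0.054, limma, adjusted p = 0.0239). It was past the threshold in 15 of 20 alternative settings and not without any 1 of the 10 Gy libraries (limma, adjusted p = 0.0708 to 0.0891). *ABCD2* was under the filter.

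Of 12 regulators, 2 rose and 2 fell, or 33.3% called against 19.1% of all genes tested (7.23% higher and 11.9% lower). With protein-coding genes alone, 4883 of 12940 were called over the table, which also limits the shares given below. *ACACA*, which makes malonyl-CoA, the inhibitor of CPT1, rose from 7.66 ± 0.828 to 9.86 ± 0.358 FPKM (log2 change 0.37, SE 0.081, limma, adjusted p = 0.0243). Its paralogue *ACACB*, at 1.04 ± 0.0529 and 1.16 ± 0.0570 FPKM, was not called (limma, adjusted p = 0.369). The call of *ACACA* was lost without 0 Gy replicate 3 or any 1 of the 10 Gy libraries (limma, adjusted p = 0.0576 to 0.113) and without trend. *ESRRA*, an orphan receptor known to drive oxidative genes, fell from 26.4 ± 1.44 to 21.5 ± 0.217 FPKM (limma, adjusted p = 0.00664), and *PPARG* fell from 5.71 ± 0.0492 to 4.75 ± 0.279 FPKM (limma, adjusted p = 0.0190). *PPARG* passed in 13 of 20 alternative settings, and not without replicate 2 or 3 of either dose (limma, adjusted p = 0.0520 to 0.0787) or under TPM scaling, where its log2 change was -0.13 (limma, adjusted p = 0.182). *PPARD* was the other that rose (log2 change 0.15, limma, adjusted p = 0.0478). *PPARA* and *PPARGC1A* were low, at 1.28 ± 0.0858 and 0.466 ± 0.0832 FPKM at 0 Gy, and were not called. Of 3 tested genes outside oxidation that respond to PPAR factors, *ANGPTL4* fell by 0.43 and *PLIN2*, a lipid droplet coat protein, fell by 0.36 on the log2 scale (limma, adjusted p = 0.0152 and 0.00268), and *PDK4* was not called. That is 66.7% called lower, against 11.9% of all genes tested, and rests on 3 genes. The call of *ANGPTL4* was lost without 10 Gy replicate 1 or 2 (limma, adjusted p = 0.0750 and 0.0690). *FABP4* and *CD36* were under the filter. Of 4 ketone body enzymes, *OXCT1* fell from 6.56 ± 0.283 to 5.16 ± 0.197 FPKM (limma, adjusted p = 0.00729) and the other 3 were not called. This is 25% called, against 19.1% of all genes tested.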
